A study of Mus musculus with 15 samples.

Results

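The comparison described here is that of 3 organoid lines able to switch on CA19-9 (A217, A220 and A225, called inducible) with 2 lines missing an allele needed for it (A218 and A223, called negative here), all before any doxycycline. Its members are the 5 libraries labelled 0 h, 1 for each line, of 15 libraries in the series; the other 10 are the same 5 lines after 4 h and 24 h of doxycycline at 1 µg/ml. All lines are ductal organoids of normal mouse pancreas, hollow epithelial cultures in Matrigel. All were kept in the same medium, renewed a day before a joint harvest. Total RNA was sequenced after removal of ribosomal RNA. The labels do not say which allele each negative line lacks, which promoters drive the alleles, or the strain, sex or number of the mice behind the lines. The 5 libraries therefore stand for 5 lines, and p-values measure only the spread between these lines.

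CA19-9 is the sialylated Lewis a glycan, a sugar epitope on secreted and membrane proteins of pancreatic ducts and a widely used serum marker of pancreatic cancer. Mouse cells lack the fucosyltransferase that completes it, and the human enzyme has to be supplied. In a tetracycline-inducible design, the transactivator rtTA binds its target promoter when doxycycline is present and drives the genes placed behind that promoter. A comparison of genotypes without the drug addresses how silent such a construct is, and how alike the lines are before anything is induced.

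The estimated counts summed to between 50323885 and 59411540 in the 5 libraries. The lines carried the transcripts of duct epithelium. The summed level of the 17 duct markers was 12720, 14350 and 15120 TPM (transcript abundance per length, scaled to a fixed total) in A217, A220 and A225, and 13660 and 13710 TPM in A218 and A223. Acinar markers summed to 4.49 to 6.44 TPM in inducible lines and 3.99 to 4.80 TPM in negative lines. Endocrine, stellate and fibroblast, immune and endothelial markers each summed to at most 4.42 TPM in any of the 5 libraries. The stellate and fibroblast sum was 2.73 TPM in A225 and at most 0.413 TPM in the other lines, and its part in any result was not tested. The defining genes Ins2, Gcg, Cpa1, Ptf1a and Pnlip were listed at 0 in all 5. The acinar marker Cela1 was not, with a mean of 2.34 TPM in inducible lines and 1.39 TPM in negative lines. In bulk RNA, fewer cells of a type and less RNA per cell cannot be told apart.

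The engineered sequences that doxycycline switches on were close to silent without it in inducible lines, though not at 0. EGFP, the green fluorescent reporter, had 18, 37 and 26 counts in A217, A220 and A225, against 16 and 9 counts in A218 and A223. Per 1000000 counts with TMM scaling (CPM), that was 0.344, 0.744 and 0.440 in inducible lines and 0.311 and 0.167 in negative lines. All 3 inducible lines lay above both negative lines, but A217 lay above A218 by less than counting error, with exact Poisson 95% intervals of 0.204 to 0.543 CPM and 0.177 to 0.504 CPM. The log2 difference was 1.08 (SE 0.52; edgeR quasi-likelihood test, adjusted p = 0.998), which did not pass. The negative lines, in which EGFP was not induced, had 0.098 to 0.351 CPM of EGFP at 4 h and 24 h on the drug, a range that reaches the value of A217 at 0 h.

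The human transcripts added to the mouse transcriptome showed the same order with more counts. The files give them by identifier only and do not say which belong to the construct. Summed over the 16 identifiers, they had 88, 86 and 179 counts in A217, A220 and A225, against 44 and 51 counts in A218 and A223. The corresponding levels were 1.68, 1.73 and 3.03 CPM in inducible lines and 0.854 and 0.948 CPM in negative lines. Every inducible line lay above both negative lines, and A225 had the most. The log2 difference was 1.25 (SE 0.34, 95% interval 0.45 to 2.06; edgeR, adjusted p = 0.998), so the sum did not pass over all features. Pooled over lines, the ratio of inducible to negative levels was 2.43 (1.93 to 3.08), and for EGFP it was 2.12 (1.34 to 3.46), where both intervals cover counting error only. The negative lines on the drug had 0.726 to 1.94 CPM of the human transcripts. The top of that range, A223 at 24 h, lay above A217 and A220 at 0 h.

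Only 3 of the 16 human identifiers had any counts at 0 h. ENST00000398714.3 had 38, 47 and 44 counts in the 3 inducible lines, against 21 and 29 counts in the negative lines. ENST00000458379.6 had 46, 37 and 104 counts in A217, A220 and A225, against 23 and 21 counts in A218 and A223. Both rose on the drug in inducible lines, to 15705 counts or more in each at 24 h. In negative lines on the drug, ENST00000458379.6 had 27 and 23 counts in A218 at 4 h and 24 h, and 16 and 66 counts in A223. The 24 h level of A223, 1.25 CPM, lay above the 0.879 and 0.744 CPM of A217 and A220 at 0 h. The cause was not tested. ENST00000380620.8 had 31 counts in A225 and at most 4 counts in each of the other lines at 0 h, and it did not follow the drug. At 4 h and 24 h it had 43 and 33 counts in A225, at most 4 counts in A217 and A220, and 31 counts in the negative line A223 at 24 h. The sum without it, a choice made after seeing the data, was 1.61, 1.69 and 2.502 CPM in A217, A220 and A225, against 0.854 and 0.929 CPM in A218 and A223. The ratio was then 2.20 (1.74 to 2.79, counting error only) and the log2 difference 1.12 (edgeR, adjusted p = 0.998). A225 was still the highest, through ENST00000458379.6. Without A225 the log2 difference of the summed human transcripts was 0.91.

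Set against the level that the same lines reached on the drug, the uninduced level was small. EGFP at 0 h was 0.124%, 0.198% and 0.168% of its 24 h level in A217, A220 and A225. The human transcripts at 0 h were 0.220%, 0.169% and 0.426% of their 24 h level in the same lines, and 0.210%, 0.165% and 0.353% without ENST00000380620.8. In negative lines, EGFP at 0 h was 167% and 110% of the 24 h value, and the human transcripts were 105% and 48.9% of it. Doxycycline thus separated inducible from negative lines by about 10 log2 units, with differences of 10.43 for EGFP at 4 h and 10.80 at 24 h, and at each of these times EGFP and the human transcripts were the 2 features called (0.0128% and 0.0132% of those tested; edgeR, adjusted p at most 0.000505).

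The engineered sequences rtTA3 and mKate2 were read in every line, with and without the drug. The transactivator rtTA3 had 99.3, 153 and 144 CPM in A217, A220 and A225, against 140 and 168 CPM in A218 and A223. The red fluorescent protein mKate2 had 106, 162 and 160 CPM in inducible lines, against 146 and 186 CPM in negative lines. The groups overlapped for both, A217 had the lowest level of each, and the log2 differences of -0.22 (SE 0.18) and -0.22 (SE 0.19) did not pass (edgeR, adjusted p = 0.998 for each). So both negative lines held rtTA3 reads at the level of the inducible lines. Without A217 the differences were -0.05 and -0.04.

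Puro, a puromycin resistance gene, was read in some lines and not in others, across the genotypes. It had 243, 29 and 0 counts in A217, A220 and A225, against 3 and 0 counts in A218 and A223. The groups overlapped, since A225 and A223 were both listed at 0, where the exact Poisson interval reaches 0.0624 and 0.0686 CPM. The order of the lines was the same at 24 h, with 4.12, 0.795 and 0 CPM in A217, A220 and A225, and 0.0928 and 0 CPM in A218 and A223. Of the other resistance genes, NeoR_KanR was listed at 0 in all 5 libraries and BleoR had 4 counts, all in A218.

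**Figure D1:**
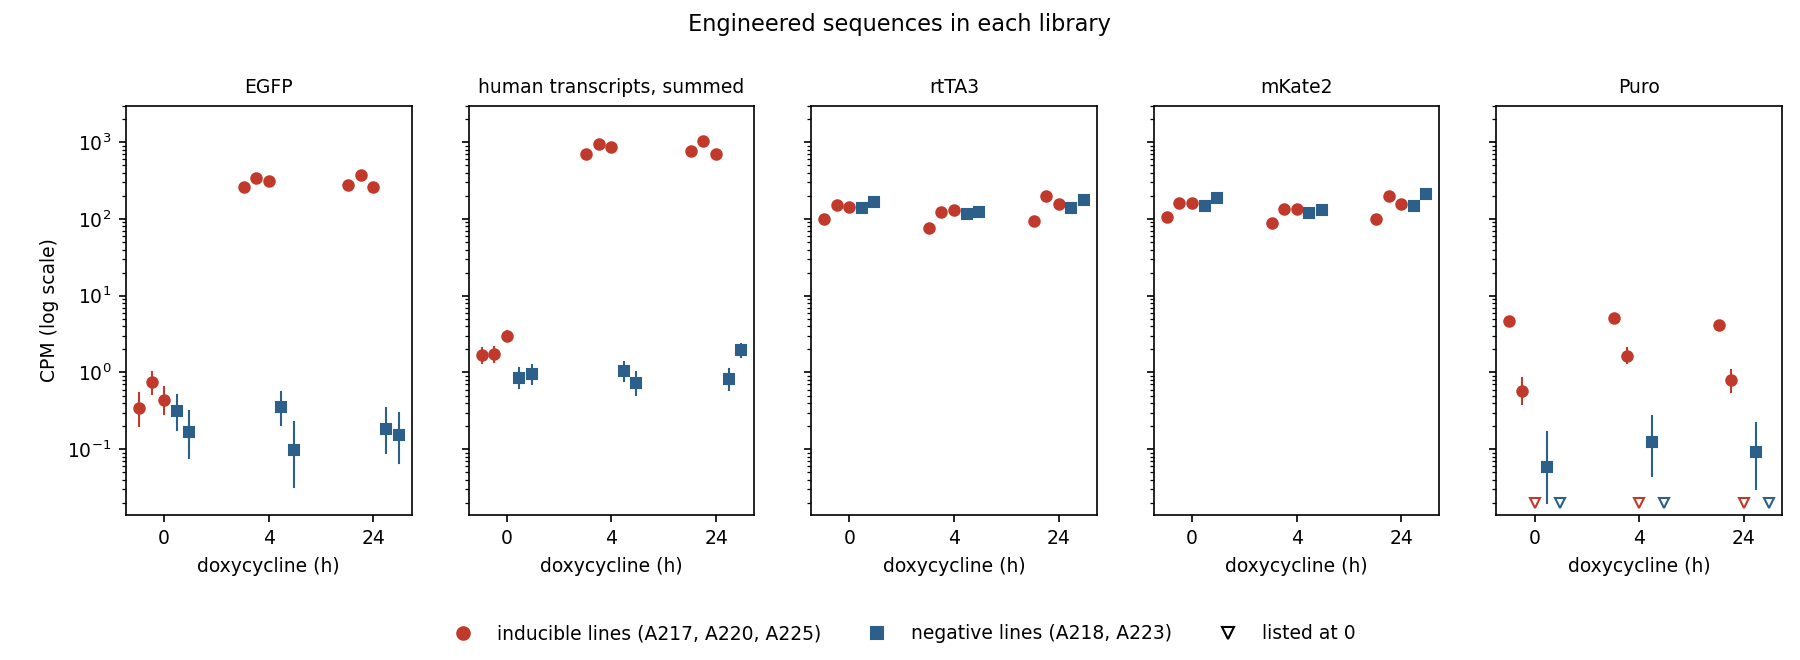
Level of 5 engineered features (CPM, log axis) against hours of doxycycline, 1 point per library, with exact Poisson 95% intervals that cover counting error only; red circles are inducible lines, blue squares negative lines, and open triangles libraries listed at 0. At 0 h, EGFP stood at 0.344 to 0.744 CPM in inducible lines and 0.167 to 0.311 CPM in negative lines, far under the 262 to 376 CPM of inducible lines on the drug, while rtTA3 and mKate2 were present in every library.

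Across the whole transcriptome, no feature passed the test before doxycycline. Of 15571 features tested by edgeR, 0 (0%) were called at an adjusted p below 0.05, and the smallest adjusted p was 0.469. At an unadjusted p below 0.05 there were 598 features (3.84%), of which 239 (1.53%) had the higher level in inducible lines and 359 (2.31%) the lower. DESeq2 called 24 (0.154%), 6 with the higher and 18 with the lower level in inducible lines, of which 11 were predicted genes or pseudogenes and 6 averaged under 1 CPM. The median log2 difference over all features was 0.01.

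The intervals show how much difference the 5 lines leave room for. Among the 12214 features that averaged 1 CPM or more, the median SE was 0.09 on the log2 scale and the median absolute difference was 0.06. For 93.5% of them the whole 95% interval lay within 2-fold in either direction. Only 62 (0.508%) had a difference above 2-fold. In 2145 (17.6%) the lines of the groups did not overlap, with inducible lines above in 1051 (8.60%) and below in 1094 (8.96%). Both non-overlap and a difference above 2-fold were met by 35 (0.287%), 11 above and 24 below, of which 14 were predicted genes or pseudogenes.

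**Figure D2:**
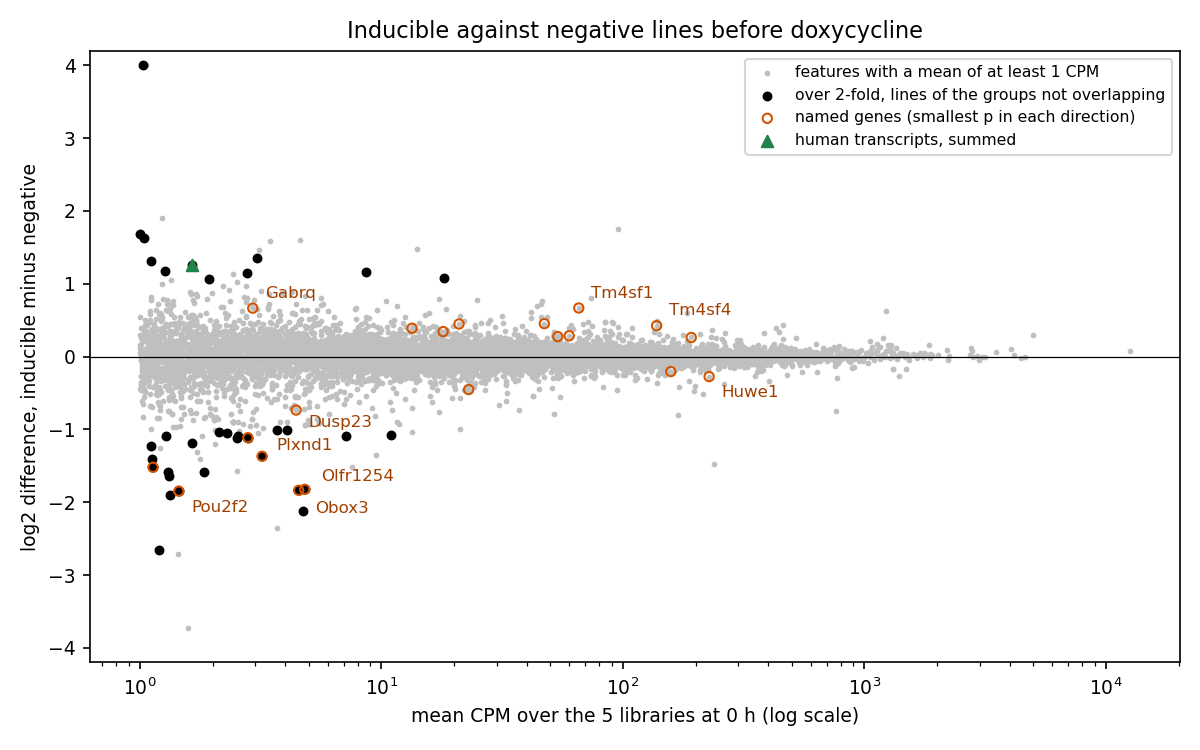
Log2 difference at 0 h (inducible minus negative) against the mean level over the 5 libraries (CPM, log axis) for the 12214 features that averaged 1 CPM or more; values beyond 4 are drawn at 4. Black points are the 35 features over 2-fold whose lines did not overlap, mostly at low levels, orange rings the named genes and the green triangle the summed human transcripts at 1.25.

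The genes named next had the smallest p in each direction among annotated genes that averaged 1 CPM or more and whose lines did not overlap. None passed by edgeR, and they are given as values. Tm4sf1, a membrane protein of the L6 tetraspanin-like family, led those with the higher level in inducible lines. It had 81.4, 68.9 and 81.0 CPM in A217, A220 and A225, against 44.5 and 52.6 CPM in A218 and A223. Its log2 difference was 0.67 (SE 0.10; edgeR, adjusted p = 0.867). The values in the same lines on the drug were close to these, with 84.1, 67.5 and 81.5 CPM in inducible lines against 43.1 and 56.9 CPM in negative lines at 4 h. At 24 h they were 88.2, 67.7 and 93.6 CPM in inducible lines against 47.6 and 57.6 CPM in negative lines. The later libraries repeat the lines and add no further line, so this is no independent support.

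In GRCm38, Tm4sf1 lies at 57285611 to 57301988 on chromosome 3. Tm4sf4, of the same family, lies at 57425314 to 57441677, 139.7 kb away from start to start. It had 158, 142 and 161 CPM in inducible lines, against 121 and 108 CPM in negative lines, a log2 difference of 0.42 (SE 0.08; edgeR, adjusted p = 0.957). No line of one group reached the other. Within 1 Mb of Tm4sf1 there were 6 genes that averaged 1 CPM or more. The other 4 had log2 differences of 0.04 for Wwtr1, 0.04 for Commd2, 0.11 for Rnf13 and -0.07 for Pfn2. The groups did not overlap in 4 of the 6 (Tm4sf1, Tm4sf4, Wwtr1 and Rnf13), against 17.6% of all features at that level. For Tm4sf1 and Tm4sf4 the rule for naming them required it. The neighbourhood was looked at after the values of Tm4sf1 and Tm4sf4 had been seen.

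Acox2, a peroxisomal oxidase of branched fatty acids and bile acid precursors, had 52.3, 49.8 and 56.9 CPM in inducible lines, against 40.6 and 36.8 CPM in negative lines (log2 difference 0.45, SE 0.08). Acot1, a cytosolic acyl-CoA thioesterase, had 15.9, 13.99 and 14.6 CPM in inducible lines, against 11.3 and 11.2 CPM in negative lines. Xbp1, a transcription factor of the unfolded protein response and of secretory cells, had 215, 195 and 208 CPM in inducible lines, against 170 and 173 CPM in negative lines, a log2 difference of 0.26 (SE 0.06). The groups did not overlap in any of the 3, which the rule for naming them required. Cfb, which encodes complement factor B, had a log2 difference of 0.29, and Serpinb6b, a serine protease inhibitor, 0.27. Zfp120, a zinc finger gene, Trim46, of the tripartite motif family, and Gabrq, a GABA receptor subunit, had differences of 0.45, 0.34 and 0.67. At 0 h the edgeR adjusted p was 0.957 for Acox2 and 0.998 for the others. In the same lines on the drug, Zfp120 had a difference of 0.13 at 4 h, where the groups overlapped, and 0.16 at 24 h. The differences at 4 h and 24 h were 0.52 and 0.22 for Acox2, 0.84 and 0.49 for Gabrq, and 0.26 and 0.22 for Xbp1.

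In the other direction, Olfr1254, annotated as an olfactory receptor, had the smallest p of all features. It had 2.48, 1.91 and 2.77 CPM in A217, A220 and A225, against 8.38 and 8.55 CPM in A218 and A223, a log2 difference of -1.82 (SE 0.18; edgeR, adjusted p = 0.469). That order was not seen in the later libraries of the same lines. At 4 h it had 1.25, 4.61 and 1.70 CPM in inducible lines and 1.26 and 3.30 CPM in negative lines, and at 24 h 1.35, 2.03 and 4.58 CPM in inducible lines and 2.25 and 3.15 CPM in negative lines. Without an expression filter, which tested 23207 features, it was the 1 gene called (adjusted p = 0.04895).

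Obox3, an oocyte homeobox gene, followed the same course. It had 2.33, 1.51 and 2.87 CPM in inducible lines, against 7.97 and 8.05 CPM in negative lines at 0 h, and 0.733, 3.14 and 1.09 CPM in inducible lines, against 0.805 and 2.57 CPM in negative lines at 4 h. Its log2 difference of -1.84 before the drug stood beside -0.04 at 4 h and -0.03 at 24 h. Pou2f2, a transcription factor of B cells, had -1.85 at 0 h, -0.16 at 4 h and 0.57 at 24 h. Olfr57, another olfactory receptor, had -1.11 at 0 h and 0.14 at 24 h, and the homeobox gene Hoxb1 had -1.52 at 0 h and -0.37 at 24 h. Dusp23, a phosphatase, had -0.73 at 0 h and 0.01 at 24 h. In these 6 genes, therefore, the libraries of A218 and A223 at 0 h stood above the other 3, and at 24 h the ranges of the groups overlapped.

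Plxnd1, a receptor for semaphorins, kept its order at all times. It had 1.76, 2.53 and 1.61 CPM in inducible lines, against 5.18 and 4.96 CPM in negative lines at 0 h, a log2 difference of -1.37 (SE 0.23; edgeR, adjusted p = 0.867). At 24 h it had 2.29, 2.13 and 1.83 CPM in inducible lines, against 4.53 and 4.79 CPM in negative lines. The groups did not overlap at either time. Clic6, of the chloride intracellular channel family, had 21.4, 20.7 and 18.0 CPM in inducible lines, against 26.9 and 27.9 CPM in negative lines, with log2 differences of -0.45 at 0 h, -0.38 at 4 h and -0.41 at 24 h.

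2 abundant genes closed that direction with small differences. Huwe1, a large ubiquitin ligase, had 210, 212 and 208 CPM in inducible lines, against 243 and 265 CPM in negative lines, a log2 difference of -0.27 (SE 0.06). The chaperone Hsph1 had 151, 146 and 150 CPM in inducible lines, against 172 CPM in each negative line, a log2 difference of -0.21 (SE 0.05). At 24 h the differences were -0.02 and -0.06. DESeq2 called 11 of the 20 named genes at 0 h, with adjusted p-values between 1.15e-12 for Olfr1254 and 0.0459 for Hsph1; they were Tm4sf1, Acox2, Tm4sf4, Olfr1254, Obox3, Pou2f2, Plxnd1, Olfr57, Huwe1, Clic6 and Hsph1.

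**Figure D3:**
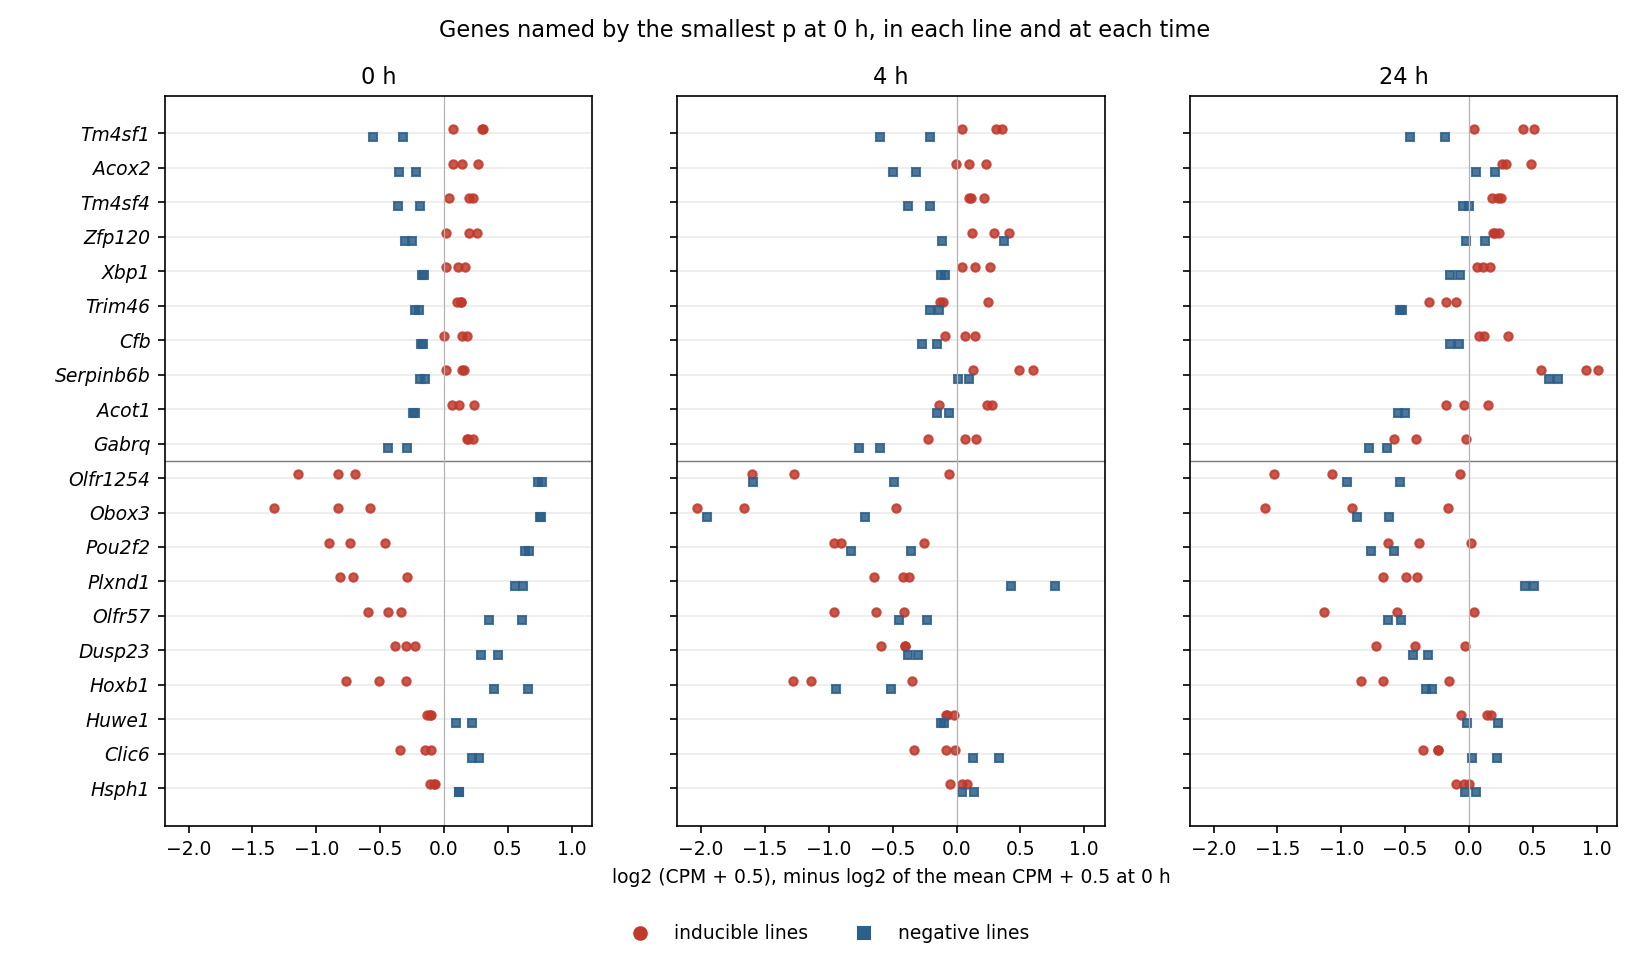
Level of the 20 named genes in each line at 0, 4 and 24 h, as log2 (CPM + 0.5) relative to the mean over the 5 lines at 0 h; red circles are inducible lines and blue squares negative lines, and the grey line divides the 2 directions. The groups are apart at 0 h by the rule that chose the genes; at 24 h they are still apart for Tm4sf1, Tm4sf4, Plxnd1 and Clic6 among others, and mixed for Olfr1254, Obox3, Olfr57 and Hoxb1.

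Since no feature passed the test, no gene of the cell's own machinery for Lewis glycans did either. The 0 calls in this and the following lists repeat the 0 of 15571 features called. Of 30 genes for fucosyltransferases, sialyltransferases, galactosyltransferases and nucleotide sugar supply, 27 were tested. In this list 0 had an unadjusted p below 0.05 by edgeR, against 3.84% of all features. Their log2 differences ran from -0.67 to 0.54 with a median of -0.07, 8 above and 19 below 0. Fut2, which adds fucose in an alpha-1,2 link, had 86.8, 87.5 and 77.0 CPM in inducible lines, against 91.8 and 88.4 CPM in negative lines. St3gal4, which adds sialic acid to galactose, had 280, 284 and 259 CPM in inducible lines, against 302 and 267 CPM in negative lines. Fut4, which makes Lewis x structures, had 8.25, 8.08 and 7.71 CPM in inducible lines, against 7.92 and 6.67 CPM in negative lines. The groups overlapped for St3gal4 and Fut4. In Fut2 the highest inducible line lay just under the lower negative line.

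Nor did any of the mucins, which can carry the epitope. Of 14 listed, 4 were tested and 0 were called. Muc1 had 164, 168 and 125 CPM in inducible lines, against 161 and 153 CPM in negative lines, and the sialomucin Cd164 had 262, 256 and 257 CPM in inducible lines, against 272 and 249 CPM in negative lines. The gel-forming mucins Muc2, Muc5ac, Muc5b and Muc6 stood at 0 to 0.194 CPM in the 5 libraries.

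The duct identity genes likewise gave 0 calls among 17 tested, with a median log2 difference of -0.01. Krt19 had 1582, 1881 and 1754 CPM in inducible lines, against 1585 and 1917 CPM in negative lines. Sox9, a duct transcription factor, had 11.1, 12.02 and 10.2 CPM in inducible lines, against 12.6 and 12.2 CPM in negative lines. The smallest p in the list belonged to the membrane proteins Tspan8, with a log2 difference of 0.18, and Epcam, with 0.17 (edgeR, adjusted p = 0.998 for each). Of 13 gastric and intestinal markers tested, Tff3, a secreted trefoil peptide, had 26.1, 22.97 and 13.7 CPM in inducible lines, against 13.2 and 10.97 CPM in negative lines (log2 difference 0.79, SE 0.27; edgeR, adjusted p = 0.998). A225 was close to A218 in this gene. The median of that list was 0.12, with 8 members above and 5 below 0. Its lowest difference was -0.79, for Dmbt1. Dmbt1 had 62.5, 36.7 and 21.7 CPM in inducible lines, against 108 and 31.0 CPM in negative lines, and the groups overlapped. Of the acinar markers 4 were tested, 3 above and 1 below 0, with a median of 0.49 and a range from -1.33 to 0.78. Among them Cela1 had 1.41, 1.85 and 1.39 CPM in inducible lines, against 0.970 and 0.836 CPM in negative lines. Its log2 difference at 0 h was 0.78 (SE 0.26, edgeR, adjusted p = 0.998). In the same lines on the drug it was 0.47 at 4 h and -0.17 at 24 h, where the groups overlapped.

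Signalling and stress lists sat near the median of all features, with 0 members called in each. The medians were 0.03 for 25 genes of EGF receptor ligands and ERK targets, 0.07 for 17 TGF-beta and BMP targets, -0.06 for 14 WNT targets and receptors, and -0.05 for 16 Notch and YAP targets. They were 0.05 for 29 inflammation genes, 0.00 for 32 interferon and antigen presentation genes, 0.04 for 18 p53 targets and 0.00 for 35 proliferation genes. For 27 hypoxia and glycolysis genes the median was 0.03, for 22 cholesterol genes -0.03, for 19 unfolded protein genes 0.01 and for 25 NRF2 and metal genes -0.03. The proliferation marker Mki67 had 526, 460 and 476 CPM in inducible lines, against 522 and 535 CPM in negative lines.

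The integrated stress response, the programme that ATF4 runs when amino acids are short, had the lowest median of the pathway lists, -0.10 over 21 genes with 6 above and 15 below 0. None was called. Slc7a5, which imports large neutral amino acids, had 101, 116 and 98.6 CPM in inducible lines, against 120 and 139 CPM in negative lines (log2 difference -0.30, SE 0.09; edgeR, adjusted p = 0.998). The stress-induced Nupr1 had 7.17, 7.58 and 6.56 CPM in inducible lines, against 9.62 and 8.38 CPM in negative lines. Slc3a2, the partner chain of Slc7a5, had a difference of -0.17. The differences in the same lines at 24 h were -0.43 for Slc7a5 and -0.62 for Nupr1.

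The 38 tested genes of the doxycycline list, chosen because they responded to the drug in these lines, had a median of -0.02 before it and 0 calls. Osgin1, an oxidative stress gene, had the smallest p, with 136, 153 and 150 CPM in inducible lines against 169 and 164 CPM in negative lines (log2 difference -0.19; edgeR, adjusted p = 0.998). Of the 13 protein genes of mitochondrial DNA, 10 were above 0 and none was called, with a median of 0.10. Relative to the mean of the 5 lines, their median log2 level was 0.093, -0.062 and 0.118 in A217, A220 and A225. It was -0.052 and -0.068 in A218 and A223, so the inducible line A220 lay between the negative lines. mt-Co1 had 5740, 4956 and 5476 CPM in inducible lines, against 4612 and 4130 CPM in negative lines (log2 difference 0.30, SE 0.09; edgeR, adjusted p = 0.998), and its difference at 4 h was -0.04. Imprinted genes, 16 tested, and genes with known variants between mouse strains, 25 tested, each had a median of 0.00 and 0 calls. Genes at loci often used for transgenes, 5 tested, had a median of -0.11; Col1a1 among them stood at 0.134, 0.241 and 1.20 CPM in inducible lines, against 0.233 and 0.204 CPM in negative lines.

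**Figure D4:**
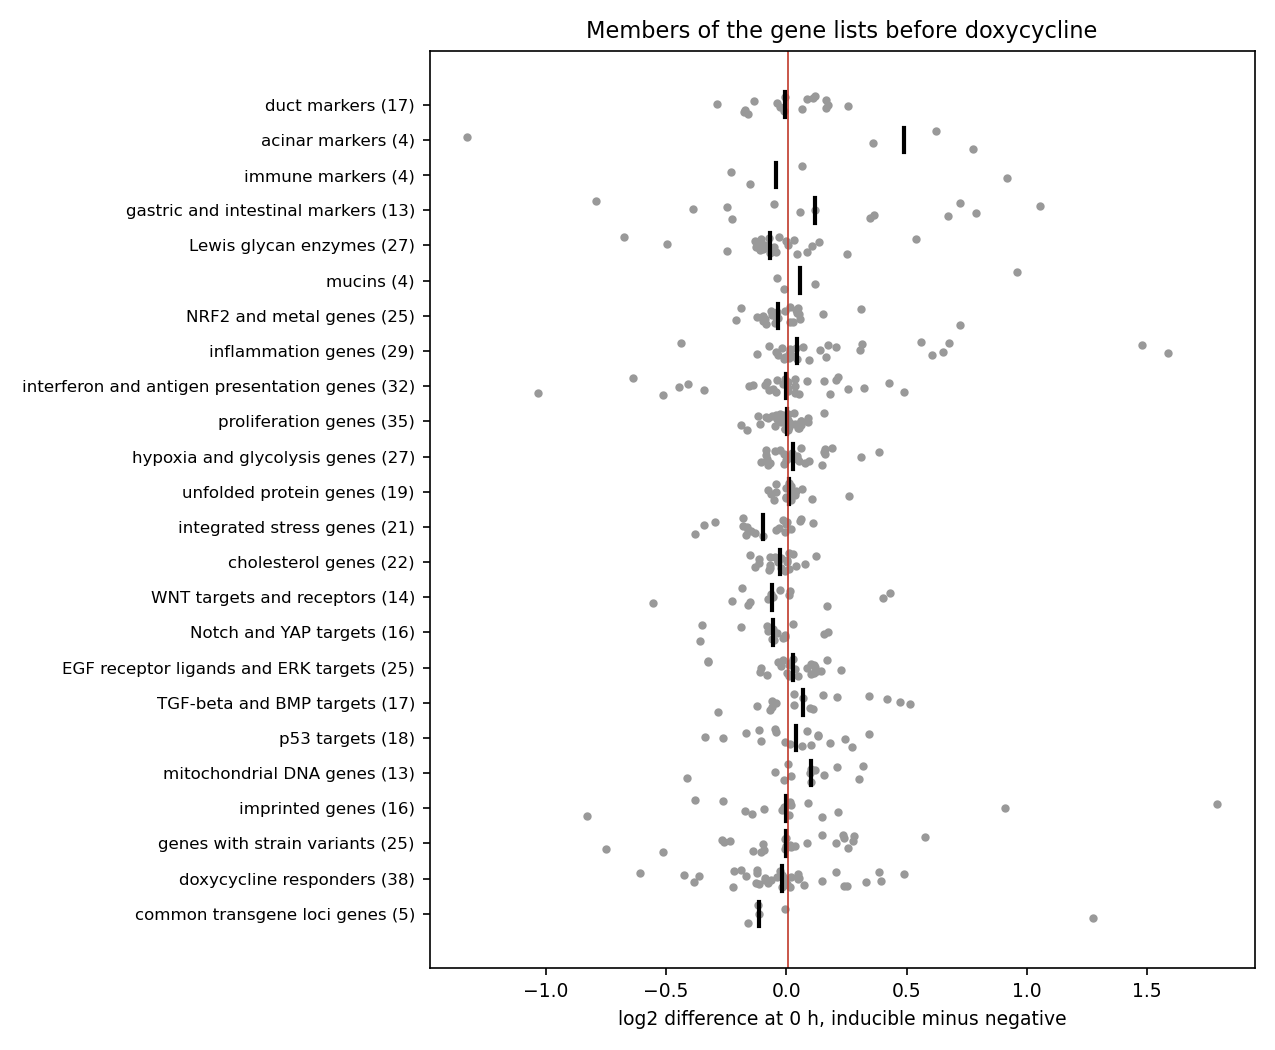
Log2 difference at 0 h (inducible minus negative) of each tested member of 24 gene lists, with the number tested in brackets; grey points are genes, black bars the median of a list, and the red line the median over all 15571 features. The medians run from -0.11, for 5 genes at transgene loci, to 0.49, for 4 acinar markers. Those of lists with more than 13 tested members lie between -0.10 and 0.07. No member was called, as no feature was.

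The differences between lines of a genotype fell within the range of those between genotypes. Over those 12214 features, the SD of the log2 difference was 0.227 to 0.340 for the 6 pairs of an inducible and a negative line. It was 0.312 to 0.340 for the 3 pairs of inducible lines and 0.271 for the negative pair. The closest pair of all was A220 with A218, an inducible and a negative line, with 78 features more than 2-fold apart. Between genotypes, that count averaged 137.3 over the 6 pairs. In 2 of the 6 it was above every pair within a genotype, with 208 features for A217 with A223 and more than that for A225 with A223. It ran from 126 to 178 within inducible lines and was 101 between A218 and A223.

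In 77 features the range over the 5 lines was over 2 on the log2 scale, and the largest gap divided the lines by genotype in 4 of them. In 14 it set A217 apart, in 13 A225, in 10 A220, in 8 A223 and in 2 A218. Other pairs were also set apart, A218 with A220 in 6, A220 with A223 in 6 and A223 with A225 in 5. A217 was paired with A223 in 3 and with A225 in 3, and A225 with A218 in 2 and with A220 in 1. The 4 features divided by genotype were Obox3 and the predicted genes Gm14667, Gm2436 and Gm9048, and 0 of them showed that division at both 4 h and 24 h. Of the other 73 features, 40 showed the division of 0 h at both later times. These 77 were picked by their range, so the counts are a description.

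The Y chromosome made 1 such division. Ddx3y, an RNA helicase gene, had 55.5, 51.8 and 0.203 CPM in A217, A220 and A225, against 51.8 and 0.149 CPM in A218 and A223. Eif2s3y, Uty and Kdm5d were likewise at 47.9 to 69.3 CPM in A217, A220 and A218 and at no more than 2.34 CPM in A225 and A223. Each genotype thus held lines of both kinds, 2 of 3 with Y transcripts in the inducible and 1 of 2 in the negative group. With genes of chromosomes X and Y left out, the count called at 0 h was still 0.

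Other genes were present or nearly absent line by line. Eno1b, an intronless copy of enolase 1 that may share reads with it, had 1.22, 416 and 0.389 CPM in A217, A220 and A225, against 363 and 408 CPM in A218 and A223. Without A220 the groups no longer overlapped and it was the 1 gene called (log2 difference -8.94; edgeR, adjusted p = 0.0112). Wdr72, a gene of enamel and kidney transport, had 4.64, 73.1 and 60.7 CPM in inducible lines, against 65.6 and 70.3 CPM in negative lines, so A217 alone was low. Its neighbour on chromosome 9, Unc13c, has its start coordinate 630.9 kb from that of Wdr72. Unc13c had 0.363, 1.75 and 3.33 CPM in inducible lines, against 1.78 and 1.93 CPM in negative lines, again lowest in A217.

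Several genes paired an inducible with a negative line. Zic5, a zinc finger transcription factor, had 0.0382, 8.54 and 0.0676 CPM in A217, A220 and A225, against 8.79 and 0.0372 CPM in A218 and A223. Ugt1a6b, a glucuronidating enzyme that shares exons with related genes, had 42.3, 5.49 and 39.7 CPM in inducible lines, against 37.1 and 5.24 CPM in negative lines. Wdfy1, an endosomal protein gene, had 36.2, 9.69 and 39.9 CPM in inducible lines, against 38.9 and 9.65 CPM in negative lines. In the first, A220 and A218 were high; in the other two, A220 and A223 were low. Me3, the mitochondrial malic enzyme, had 5.29, 4.44 and 3.36 CPM in inducible lines and 1.96 and 22.9 CPM in negative lines, and stood apart in A223.

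Some wide ranges belonged to a library rather than to a line. Lars2, a mitochondrial leucyl-tRNA synthetase gene, had 352 CPM in A220 at 0 h, against 16.8 and 27.5 CPM in A217 and A225 and 40.2 and 38.4 CPM in A218 and A223. At 24 h A220 had 33.0 CPM. Nanp, a sialic acid synthesis enzyme, had 0.864 CPM in A220 at 0 h and 6.15 CPM at 24 h.

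**Figure D5:**
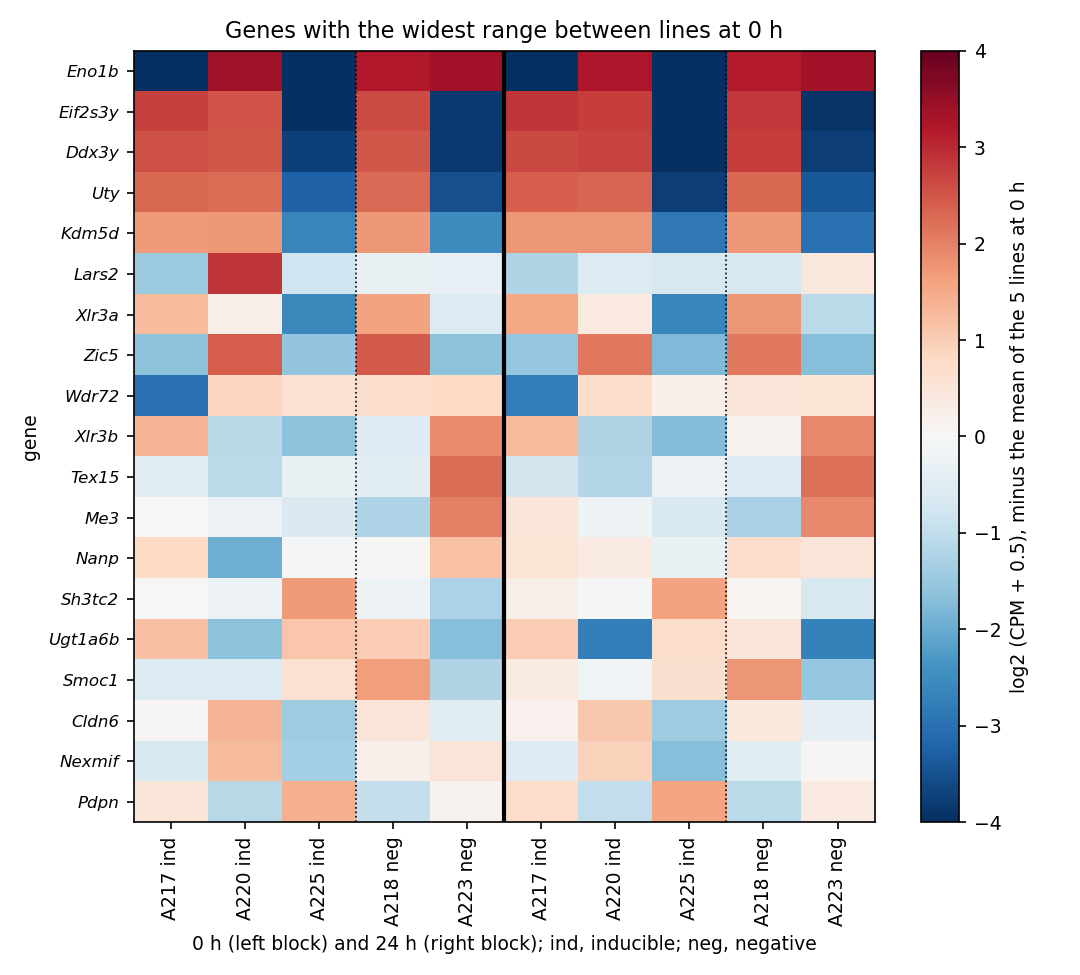
The 19 annotated genes with the widest range between lines at 0 h, in each line at 0 h and at 24 h, as log2 (CPM + 0.5) minus the mean of the 5 lines at 0 h, with colours limited at 4 in each direction. The dotted lines divide inducible from negative lines; few rows change colour at them, while the Y genes divide A225 and A223 from the rest at both times and Lars2 is high in A220 at 0 h only.

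Medians over whole autosomes stayed close to 0. The median log2 difference per chromosome lay between -0.0014 and 0.0119 over the 19 autosomes, each with 296 to 984 expressed genes, and was -0.0014 for 377 genes of chromosome X. The 6 expressed genes of chromosome Y had a median of 0.83, with A225 and A223 low. The 13 genes of mitochondrial DNA had a median of 0.10, with A220 at the level of the negative lines. The widest deviation of an autosome in any line was 0.03, on chromosome 7 in A220.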

How the data were processed

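Per the labels' protocols, drug additions were staggered for a joint harvest, and libraries were made with a TruSeq kit after ribosomal depletion; no source used here gives the strand setting of the counting. The submitters' processing notes name kallisto 0.43.1, GRCm38 and DESeq2 1.18.1. As deposited, each library has unnormalised estimated counts per transcript together with TPM values. Here, estimated counts were summed per gene with GENCODE M21 and rounded to whole numbers. The 1295 of 109304 transcripts without a match (0.573 to 0.593% of counts at 0 h) were left out, which left 34554 features; 16 human transcripts were summed into 1. Deposited TPM were used for summed marker levels.

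The 5 libraries at 0 h were tested with edgeR's quasi-likelihood method (edgeR version 4.0.16 under R version 4.3.3), with TMM scaling (factors 0.995 to 1.01), edgeR's default expression filter and Benjamini-Hochberg adjustment over all 15571 features tested; features were called at an adjusted p below 0.05. These held 99.97% of counts. The fit had 3 residual degrees of freedom and a biological coefficient of variation of 0.146. The same test was fitted to the 5 libraries at 4 h and at 24 h. CPM are counts per 1000000 with TMM scaling, and 0.5 was added before logarithms where lines were compared. Reads carry no molecular identifiers, so Poisson intervals cover counting error only.

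Named genes were the 10 per direction with the smallest p among annotated genes that averaged 1 CPM or more and had groups that did not overlap, and from each gene list those with the smallest p. Members and lists were chosen with earlier results of these data known. Further list members were named for their role, and genes that vary between lines for their range, after their values were seen. Alternatives were median-of-ratios scaling, DESeq2 1.42.0, other expression filters, an offset for effective length, fits to all 15 libraries without and with the line as a random block (limma-voom, limma 3.58.1), leaving out chromosomes X and Y, leaving out each library and, added after seeing the data, a sum of human transcripts without 1 identifier. The code was tested on simulated data.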

Additional observations from a re-analysis of the deposited data

How the results depend on the processing

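The count of 0 called at 0 h by edgeR held with median-of-ratios scaling, a filter of 1 CPM in at least 2 libraries, the length offset, all 15 libraries without a block, and without chromosomes X and Y. With the line as a random replicate block (limma-voom, correlation 0.417) it was also 0; lines are nested in genotype, so a fixed block could not be fitted. DESeq2 called 24 at 0 h, 17 at 4 h and 28 at 24 h, against 0, 2 and 2 by edgeR, and without an expression filter edgeR called 1, 4 and 4; the cause was not tested. Leaving out each library in turn gave 0 to 2 at 0 h, 2 to 3 at 4 h and 2 to 4 at 24 h. At 0 h the calls were Gm11518 and Gm5905 without A218 and Eno1b without A220, at 24 h Pgam1-ps2 and Gm5905 were added without A218, and where A218 or A223 was left out, the lone negative line is assumed to vary like the inducible ones. The median of chromosome 2 was 0.0029, and -0.00032 with median-of-ratios scaling. The log2 difference of EGFP ran from 0.70 without A223 and 0.72 without A220 to 1.59 without A218, and that of the human transcripts from 0.91 without A225 to 1.40 without A217. Medians near 0 changed sign for 5 chromosomes (2, 4, 16, 18 and 19) with that scaling and for 2 (16 and X) at a mean of at least 5 CPM, the farthest from 0 at 0.0052. The engineered sequences and named genes kept their direction under the alternatives run. With 3 lines against 2, even differences above 2-fold were not called by edgeR, such as -1.82 for Olfr1254 and -1.37 for Plxnd1. Nor was the 0.67 of Tm4sf1, a gene at 65.7 CPM. A count of 0 called therefore does not show that such differences are absent. Counting error limits EGFP and, in negative lines, the human transcripts at 0 h.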
